A study of Mus musculus with 2 samples.

Results

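Glucose and lactate handling was followed in activated mouse T cells through 10 genes that act as control points of glycolysis: the glucose transporters Slc2a1 and Slc2a3, the hexokinases Hk1 and Hk2, the phosphofructokinase regulator Pfkfb3, the lactate transporters Slc16a1 and Slc16a3, the lactate dehydrogenase subunits Ldha and Ldhb, and the pyruvate dehydrogenase kinase Pdk1. They were chosen by name, with their values known, because several were strongly lower with triptolide. All 10 were among the 18193 genes with a probe set of exactly 1 gene symbol. They are covered by 24 such probe sets of 34945, of which 23 were above background on at least 1 array and 19 on both.

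The study measured mouse primary T cells of 2 groups, each on 1 Affymetrix array of total RNA. The stimulated group received antibodies against CD3 and CD28, which together mimic antigen and costimulation. The triptolide group received the same antibodies and triptolide at 50 ng/ml. Triptolide is a plant diterpenoid that binds the XPB subunit of the transcription factor TFIIH. Purified cells of both groups were cultured for 18 h. Strain, sex and age of the mice, the number of animals used and the duration of the triptolide exposure have no entry in the sources used here. An unstimulated group was not analysed here, so no value below is a response to the antibodies. With 1 array per group there is no replicate error and no test: every difference below compares these 2 arrays, and a gene is counted as lower or higher by size alone, at 2-fold or more.

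T cells switch to rapid glucose uptake and lactate release when they are activated. Glucose enters through the facilitative transporters GLUT1 (Slc2a1) and GLUT3 (Slc2a3) and is trapped as glucose phosphate by hexokinase. PFKFB3 makes the bisphosphate that activates phosphofructokinase, lactate dehydrogenase converts pyruvate to lactate while regenerating NAD+, and the transporters MCT1 (Slc16a1) and MCT4 (Slc16a3) carry lactate across the plasma membrane. PDK1 phosphorylates and inhibits pyruvate dehydrogenase, which keeps pyruvate out of the mitochondria. MYC and HIF1 are textbook activators of many of these genes, and HIF1 binds DNA at a core of A or G followed by CGTG.

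Values are MAS5 signals, in arbitrary units. A floor of 118, the 95th percentile of 87 probe sets of chemosensory receptor genes that T cells are not expected to express, stands for background, and signals under it were set to it before a ratio was taken. A fold with 1 array at the floor is a minimum, written "at least". Each gene is represented by its brightest probe set unless stated otherwise. Across 3733 genes with several measured probe sets, log2 ratios from the same gene had an SD of 0.49 between probe sets. This SD is a guide to technical precision only and does not cover variation between cultures or animals. Ratios are also best read against -0.16, the median over all 10968 detected genes.

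The promoter windows of 5 genes are shown first, because these genes span much of the range of the values described further on. On their brightest probe sets, Slc2a1, Pfkfb3 and Slc16a3 were at least 2-fold lower. Ldha and Slc16a1 lay within 2-fold, with log2 ratios below 0 and above 0. Slc2a3, the gene with the lowest ratio, had no window. For Pfkfb3 and Ldha the window shown is the one that held the E-box CACGTG. Each window is 300 bases of RefSeq sequence on build GRCm38.p6, from 250 bases before an annotated transcription start to 50 bases after it, printed 5′ to 3′ along the gene. Capitals mark ACGTG on either strand (read as CACGT on the other), the E-box CACGTG, which contains it, and the TATA box letters TATAAA, wherever they stand. The windows lie at chr4:119108495-119108794 (plus strand), chr2:11502041-11502340 (minus strand, the second of both Pfkfb3 windows), chr11:120948817-120949116 (plus strand), chr7:46845554-46845853 (plus strand, the first of both Ldha windows) and chr3:104638414-104638713 (plus strand).
Slc2a1: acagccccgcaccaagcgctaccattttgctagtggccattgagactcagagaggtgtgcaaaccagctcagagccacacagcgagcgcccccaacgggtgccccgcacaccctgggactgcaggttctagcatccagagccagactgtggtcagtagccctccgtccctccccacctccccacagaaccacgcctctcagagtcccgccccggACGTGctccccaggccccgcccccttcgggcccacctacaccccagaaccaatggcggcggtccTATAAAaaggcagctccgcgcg
Pfkfb3: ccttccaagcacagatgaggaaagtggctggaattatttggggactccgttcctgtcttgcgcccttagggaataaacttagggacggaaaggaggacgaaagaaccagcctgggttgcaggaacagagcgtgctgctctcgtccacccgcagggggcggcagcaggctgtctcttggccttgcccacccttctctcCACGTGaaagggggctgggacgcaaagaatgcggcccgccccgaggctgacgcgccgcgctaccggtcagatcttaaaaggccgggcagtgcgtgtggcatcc
Slc16a3: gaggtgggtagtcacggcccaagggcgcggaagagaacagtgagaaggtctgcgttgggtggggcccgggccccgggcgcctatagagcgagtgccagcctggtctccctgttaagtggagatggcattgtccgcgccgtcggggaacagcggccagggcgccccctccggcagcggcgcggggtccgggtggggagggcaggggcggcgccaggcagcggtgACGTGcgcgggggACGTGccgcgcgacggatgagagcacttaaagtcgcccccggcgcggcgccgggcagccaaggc
Ldha: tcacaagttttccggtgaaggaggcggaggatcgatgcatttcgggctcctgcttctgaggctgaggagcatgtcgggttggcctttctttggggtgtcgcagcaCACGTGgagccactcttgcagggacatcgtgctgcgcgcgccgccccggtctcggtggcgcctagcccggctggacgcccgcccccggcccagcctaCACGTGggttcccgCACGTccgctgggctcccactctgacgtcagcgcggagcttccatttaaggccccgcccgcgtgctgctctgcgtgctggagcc
Slc16a1: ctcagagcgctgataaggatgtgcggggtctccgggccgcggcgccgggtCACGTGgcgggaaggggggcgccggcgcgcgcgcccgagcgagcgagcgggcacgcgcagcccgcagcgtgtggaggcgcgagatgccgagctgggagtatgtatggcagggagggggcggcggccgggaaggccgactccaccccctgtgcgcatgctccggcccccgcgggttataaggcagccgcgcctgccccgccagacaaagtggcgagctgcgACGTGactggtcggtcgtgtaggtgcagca

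The Slc2a1 window held ACGTG 36 bases before the start and TATAAA 29 bases into the transcript. The Slc16a3 window held ACGTG at 27 and at 14 bases before the start. The Pfkfb3 window shown held CACGTG 53 bases before the start. In the Ldha window CACGTG stood at 145 and at 48 bases before the start. The Slc16a1 window held CACGTG 200 bases before the start and ACGTG again 21 bases into the transcript. ACGTG was thus present in the windows of genes with ratios below 0 and of the gene with a ratio above 0. It was in none of the windows, not shown, of Ldhb and Pdk1, both at least 2-fold lower on their brightest probe sets. GCGTG, the other form of the HIF1 core and not marked in capitals, was in windows of both. It stood 126 bases before the start for Ldhb, and at 78 and 2 bases before the start for Pdk1. Of the windows shown, all but that of Slc16a3 held GCGTG.

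Over all members, windows were found for 9 of 10 genes, 13 in all. For 4 of the 9 genes a window lay at the outermost annotated start of the gene. Distances hold only for the annotated start of each window. ACGTG, searched on both strands, was in 8 of the 13, against 19.6% of all 32851 windows of that length and 26.5% of the 9690 windows with a GC content of at least 60%. GCGTG was in 8 of 13, against 32.4% of all windows and 59.2% of the GC-rich ones. CACGTG was in 3 of 13 (Pfkfb3, Slc16a1 and Ldha), against 7.15% and 10.8%. TATAAA was in 1 of 13 (Slc2a1), against 13.6% and 3.21%. The GC box GGGCGG was in 8 of 13, against 35.7% and 80.6%. The GC content of the members' windows ranged from 40.3% to 73.7%. Some of the 13 thus lie under 60%, and the shares of GC-rich windows are not a matched comparison for them. Windows of 1 gene share their gene, and a match is a description of letters, not of a bound site.

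With triptolide, 7 of the 10 genes were at least 2-fold lower, 3 lay within 2-fold and none was 2-fold or more higher. The shares of all detected genes were 12.5% at least 2-fold lower and 5.63% on the higher side. Because the genes were picked with these values in view, their count says nothing beyond the values themselves. The median log2 ratio of the 10 genes was -1.51. By probe set, 19 of the 23 detected were at least 2-fold lower, against 12.8% of all 19209 detected probe sets (5.69% were at least 2-fold higher), and 22 of 23 had a ratio below 0.

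**Figure D1:**
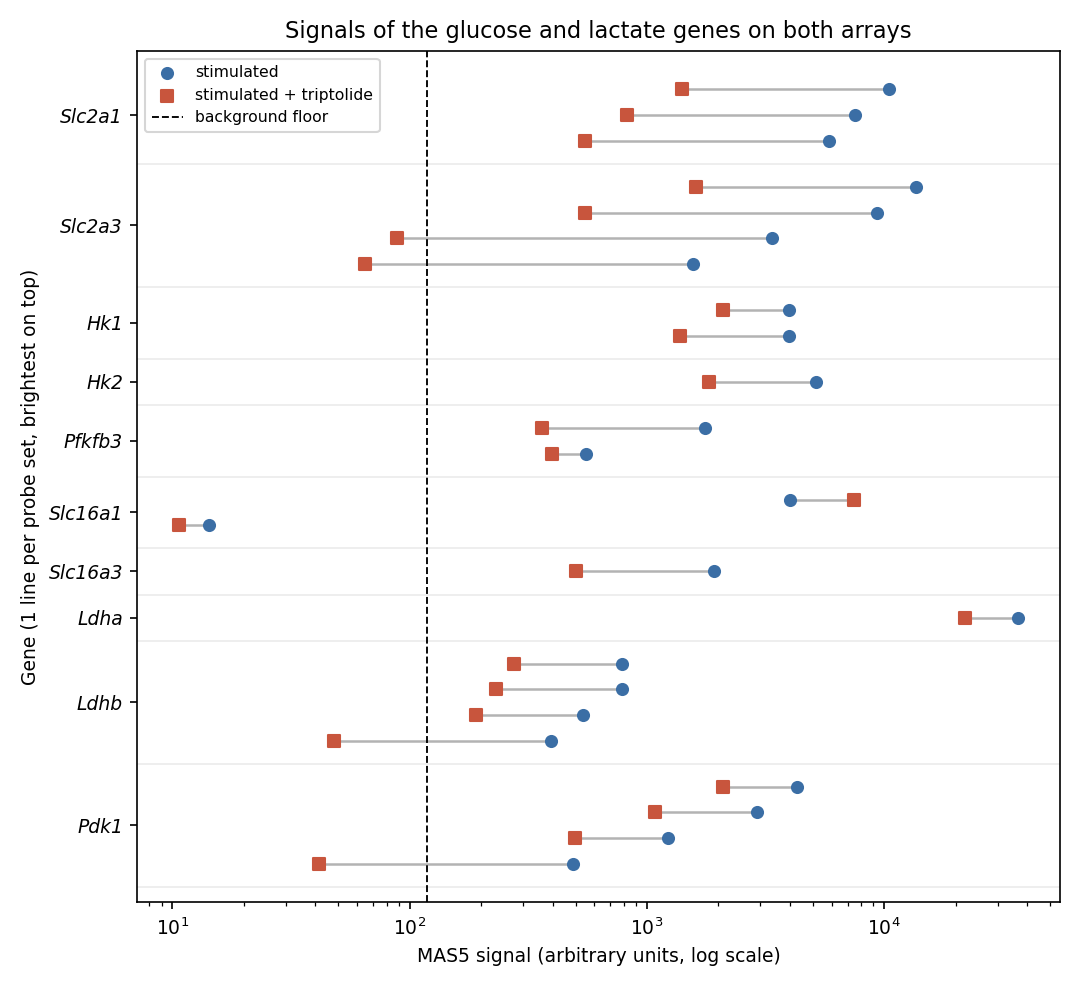
MAS5 signal (log axis, arbitrary units) of each of the 24 probe sets of the 10 genes, as a circle for the stimulated array and a square for the triptolide array, joined by a line, with the background floor of 118 dashed. The square lies left of the circle for every probe set except the bright Slc16a1 probe set, and 4 detected probe sets (2 of Slc2a3, 1 of Ldhb, 1 of Pdk1) lie under the floor with triptolide.

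The glucose transporters differed most. Slc2a3, which encodes the high-affinity transporter GLUT3, read 13616.5 without and 1604.1 with triptolide on its brightest probe set, 8.49-fold lower. Its ratio was rank 12 from the lowest among the 10968 detected genes. The next probe set went from 9287.7 to 545.3, 17.0-fold lower. The other two were under the floor with triptolide, at 3369.3 against 88.6 (at least 28.5-fold lower) and at 1561.5 against 65.0 (at least 13.2-fold lower). All 4 Slc2a3 probe sets were thus lower. The log2 ratios of those measured on both arrays were -3.09 and -4.09, and the brightest one gave the smallest difference of the 4.

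Slc2a1 encodes GLUT1, the main glucose transporter of activated T cells. Its brightest probe set read 10438 without and 1411 with triptolide, 7.40-fold lower and rank 14 from the lowest. The other two read 7543.8 against 820.8 (9.19-fold lower) and 5845.6 against 549.7 (10.6-fold lower). All 3 were above the floor on both arrays and their log2 ratios lay between -3.41 and -2.89, a range close to 1 SD between probe sets. On its brightest probe set Slc2a3 had a log2 ratio 0.20 below that of Slc2a1 (a difference of -0.20), within the 0.69 expected as the SD of a difference between 2 probe sets. Over other choices of probe sets the difference ran from at most -1.94, with an Slc2a3 probe set that was under the floor with triptolide, to 0.33, so the order of both transporters depends on the probe sets used.

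Downstream of uptake, the hexokinases differed less. Hk2, the inducible hexokinase of proliferating cells, has 1 probe set, which read 5159.9 without and 1825.7 with triptolide, 2.83-fold lower. Hk1, the housekeeping hexokinase, read 3983.5 against 2085.7 on its brightest probe set, a log2 ratio of -0.93 that falls just short of 2-fold. Its other probe set read 3959.6 against 1371.7, 2.89-fold lower. The log2 ratio of Hk2 minus that of Hk1 was -0.57 on the brightest probe sets and 0.03 with the other Hk1 probe set, so a difference between the hexokinases was not detectable beyond the spread of probe sets.

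Pfkfb3, whose product sets the activator level of phosphofructokinase, read 1759.6 without and 361.9 with triptolide on the brighter of its probe sets, 4.86-fold lower and rank 79 from the lowest. Its other probe set read 553.8 against 399.5, 1.39-fold lower. Their log2 ratios, -2.28 and -0.47, lay 1.81 apart, against the 0.69 expected as the SD of a difference between 2 probe sets. Both were below 0, but only the brighter passed 2-fold, and the size of the Pfkfb3 difference is therefore uncertain.

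Of the lactate transporters, Slc16a3 was at least 2-fold lower, while Slc16a1 lay within 2-fold with a log2 ratio of 0.90. Slc16a3, which encodes the lactate exporter MCT4, has 1 probe set, at 1907.5 without and 503.3 with triptolide, 3.79-fold lower and rank 167 from the lowest. Slc16a1, which encodes MCT1, a transporter that carries lactate and pyruvate in either direction, read 3996.9 without and 7483.7 with triptolide, a ratio of 1.87 that falls short of 2-fold. Of all detected genes 93.1% had a lower ratio than Slc16a1. Its other probe set read 14.2 and 10.7, under the floor on both arrays, and gives no ratio. The log2 ratio of Slc16a3 minus that of Slc16a1 was -2.83, or 4.10 times the SD of a difference between 2 probe sets. Such a difference within the same 2 arrays does not depend on how each array was scaled, but it rests on 1 measured probe set per gene. Slc16a1 passed 2-fold (log2 ratio above 1) when the arrays were centred on their medians or quantile normalized.

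Lactate dehydrogenase is a tetramer of the subunits encoded by Ldha and Ldhb. Ldha had a signal of 36537.6 without and 21832.4 with triptolide on its 1 probe set, a log2 ratio of -0.74, and 20.2% of all detected genes had a lower ratio. For Ldhb, the 4 probe sets read 788.2 against 273.8, 783.9 against 231.0, 538.4 against 190.9, and 392.8 against 48.0. They were 2.88-fold, 3.39-fold, 2.82-fold and at least 3.32-fold lower, the last being under the floor with triptolide. The log2 ratios of the 3 probe sets measured on both arrays lay within 0.27 of each other. The log2 ratio of Ldhb minus that of Ldha was -0.78 on the brightest probe sets and between -1.02 and -0.75 over the 3 measured Ldhb probe sets. The first value is 1.13 times the SD of a difference between 2 probe sets, so it is not clear of that spread.

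Pdk1, the kinase that shuts pyruvate dehydrogenase, read 4287.9 against 2082.1 on its brightest probe set, 2.06-fold lower and just past the limit. The other three read 2896.1 against 1081.6 (2.68-fold lower), 1220.5 against 496.4 (2.46-fold lower) and 487.5 against 41.6 (at least 4.12-fold lower). All 4 passed 2-fold, and the 3 measured on both arrays had log2 ratios from -1.42 to -1.04. Pdk1 lies just inside the 2-fold limit and Hk1 just outside it, and their brightest ratios differ by less than the SD between probe sets.

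**Figure D2:**
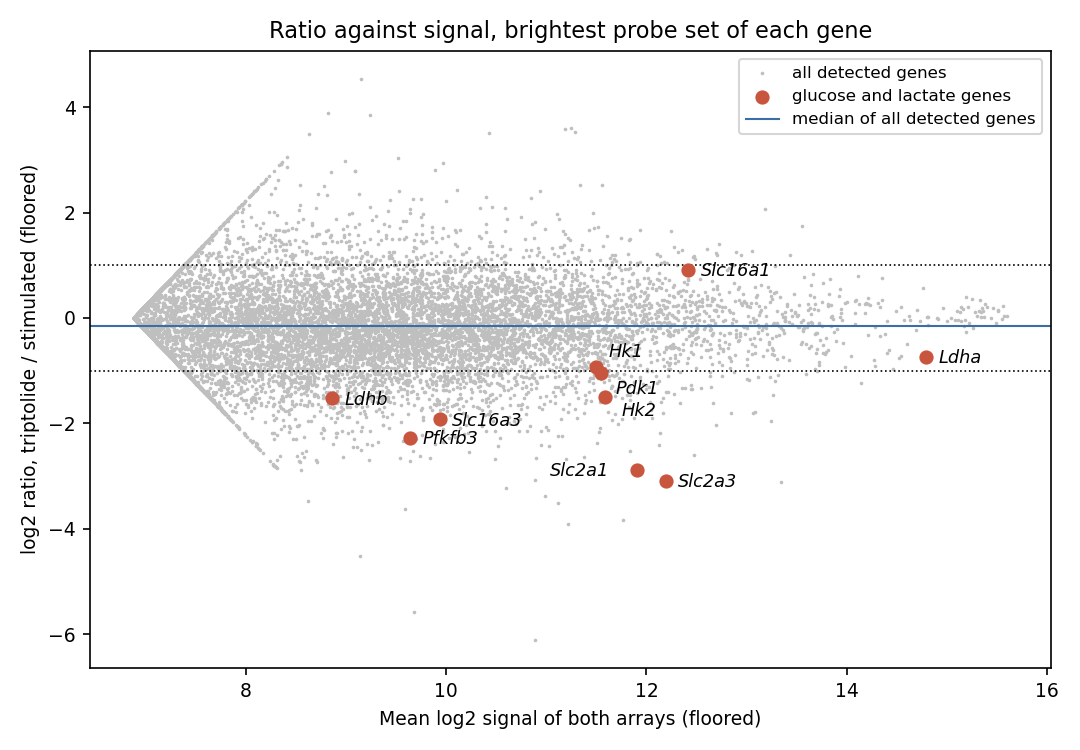
log2 ratio of triptolide over stimulated against the mean log2 signal of both arrays, both floored, for the brightest probe set of each of the 10968 detected genes (grey) and the 10 glucose and lactate genes (named), with the median of all genes as a line and 2-fold as dotted lines. Slc2a1 and Slc2a3 sit at -2.89 and -3.09, far below most genes of like signal, while Slc16a1 sits at 0.90, above the median line.

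In order of the log2 ratio the genes ran Slc2a3 (-3.09), Slc2a1 (-2.89), Pfkfb3 (-2.28), Slc16a3 (-1.92), Ldhb (-1.53), Hk2 (-1.50), Pdk1 (-1.04), Hk1 (-0.93), Ldha (-0.74) and Slc16a1 (0.90). Each of the neighbours differed by less than the 0.69 expected as the SD of a difference between 2 probe sets, except Ldha and Slc16a1. For 9 of the 10 genes the ratio was below 0, as it was for 60.2% of all detected genes. At least 4-fold lower were 3 genes, Slc2a3, Slc2a1 and Pfkfb3, among 149 (1.36%) of all detected genes.

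The enzymes that carry glucose phosphate to pyruvate were compared beside them. Of 14 listed enzymes 11 had a probe set of their own, and all 11 were detected, with 2 at least 2-fold lower (12.5% of all detected genes were), 9 within 2-fold and a median log2 ratio of -0.66. Aldoc, an aldolase, was 9.38-fold lower (4743.7 against 505.5) on the brighter probe set, the other being dim (136.5 against 13.0, at least 1.15-fold lower). Pfkl, the liver-type phosphofructokinase subunit, was 2.72-fold lower (5116.5 against 1881.6), and of its other two probe sets 1 had a log2 ratio of -1.32 and the dimmest (244.8 against 65.5) was at least 2.07-fold lower. The remaining phosphofructokinase subunits Pfkm and Pfkp had log2 ratios of -0.94 and -0.66.

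All other detected enzymes of the list lay within 2-fold on their brightest probe sets. Log2 ratios were -0.66 for triose phosphate isomerase (Tpi1), -0.49 for aldolase Aldoa, -0.04 for pyruvate kinase (Pkm) and 0.06 for phosphoglycerate mutase (Pgam1). Phosphoglycerate kinase (Pgk1) had -0.75 on its brightest probe set, but its other two gave -0.30 and -2.54, so its size is uncertain. The enolase Eno3 had a log2 ratio of 0.80 (878.3 against 1532.6, 1.74-fold higher), and Eno2 was at the floor (118.5 and 90.8).

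Other members of the same families were mostly near or under the floor. Of 11 other glucose and fructose transporters 5 were detected, but only 1 (Slc5a2) was above the floor on both arrays, so the ratios of the other four are minima. None reached 2-fold on floored signals (12.5% of all detected genes were lower and 5.63% higher), while 1 was at least 2-fold lower and 2 higher without a floor. The median log2 ratio was -0.37, and 0.08 with the arrays centred on their medians or quantile normalized. The lowest were Slc2a8 (188.2 against 29.4, at least 1.59-fold lower) and the sodium-coupled Slc5a2 (358.7 against 226.0). The other Slc5a2 probe set went the other way (95.6 against 153.2, at least 1.29-fold higher). The highest were Slc2a6 (56.9 against 141.8) and the fructose transporter Slc2a5 (55.2 against 125.1), both barely above the floor. On its brightest probe set, no transporter of this list had a signal above 358.7 on either array.

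Among other hexokinases and PFKFB genes, 4 of 7 with a probe set were detected, 2 of them on both arrays. Of these 4, 1 was lower and 1 higher by at least 2-fold, against 12.5% and 5.63% of all detected genes (median log2 ratio 0.61). Pfkfb4, a relative of Pfkfb3, was at least 2.91-fold lower (344.2 against 67.0). Adpgk, a glucokinase that uses ADP, was 2.29-fold higher (222.3 against 509.1), and its other probe set had a log2 ratio of 1.32. The myeloid hexokinase Hk3 read 104.7 against 196.6. Tigar, a phosphatase that lowers the same bisphosphate, had a log2 ratio of 0.49 on the brightest probe set, while another (189.1 against 27.3) was at least 1.60-fold lower.

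Among other monocarboxylate transporters and their chaperones, 7 of 13 were detected, 3 of them on both arrays, so most ratios are minima. On floored signals none was lower and 1 higher by at least 2-fold (median log2 ratio -0.08), while without a floor 3 were lower and the median was -0.95. Of all detected genes, 12.5% were lower and 5.63% higher on floored signals. Basigin (Bsg), the chaperone that brings MCT1 and MCT4 to the membrane, read 11360.4 without and 14973.1 with triptolide, a log2 ratio of 0.40. Embigin (Emb), a related chaperone, had -0.10. The lowest were Slc16a6 at -0.95 (486.1 against 251.2) and Slc16a4 (156.8 against 15.8, at least 1.32-fold lower). The amino acid transporter Slc16a10 was at least 2.07-fold higher (117.8, just under the floor, against 245.1), and was no longer counted under 4 of 8 alternatives.

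For pyruvate entry into mitochondria, 11 of 15 genes were detected, and 1 was lower and none higher by at least 2-fold (median log2 ratio -0.49). The shares of all detected genes were 12.5% lower and 5.63% higher. Pdha1, a catalytic subunit of the pyruvate dehydrogenase that PDK1 inhibits, was 2.49-fold lower (3426.3 against 1374.4), with -1.51 on its other probe set. Its partner subunit Pdhb went the other way, with a log2 ratio of 0.61 (3120.2 against 4749.5). The phosphatase regulator Pdpr had -0.75 and the mitochondrial pyruvate carrier Mpc1 had 0.51. Other pyruvate dehydrogenase kinases were Pdk3, at 1481.1 against 1373.0, and Pdk2 and Pdk4, both under the floor.

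**Figure D3:**
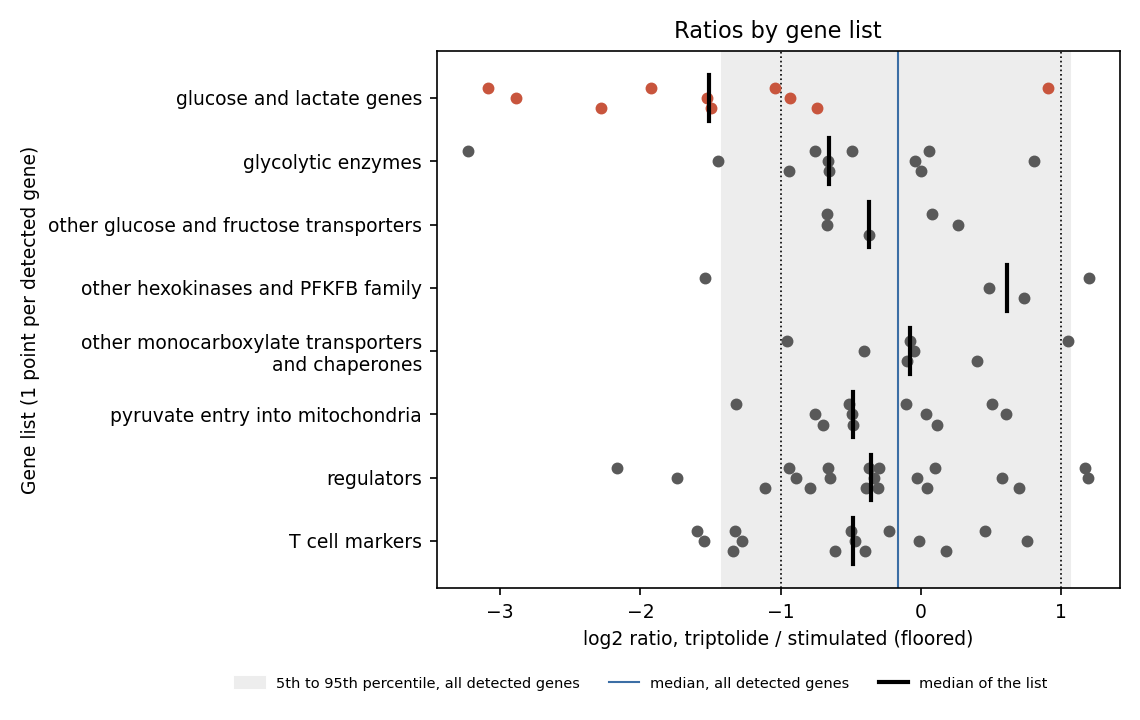
log2 ratio of triptolide over stimulated (horizontal axis) of each detected gene (points) in the 10 glucose and lactate genes, 6 related gene lists and the T cell markers, with the median of each list as a black bar. The shaded band holds the 5th to 95th percentile of all detected genes (-1.42 to 1.06), and the 10 genes have the lowest median of the lists drawn (-1.51), a description of genes chosen on these values.

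Of 24 regulators with a probe set, 20 were detected, and 3 were lower and 2 higher by at least 2-fold (median log2 ratio -0.35). This is close to the shares of all detected genes (12.5% lower and 5.63% higher). Egln1 and Egln3, prolyl hydroxylases that mark HIF1 for degradation and are themselves HIF1 targets, were 4.48-fold lower (6267.2 against 1397.5) and 3.33-fold lower (7715 against 2313.9). The other probe sets of both were also lower, with log2 ratios of -1.82 and -2.13. Myc, the activator of growth and glycolysis genes, was 2.16-fold lower (6993.3 against 3241.7, 1 probe set).

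Hif1a, the oxygen-regulated HIF1 subunit, read 14488.5 against 8357.4 on its brightest probe set (log2 ratio -0.79), and its other three gave -1.33, -1.61 and -2.31. All 4 Hif1a probe sets were below 0, and only the brightest was within 2-fold. Txnip, an inhibitor of glucose uptake that promotes GLUT1 internalisation, read 1486.1 without and 3343.2 with triptolide on the brighter probe set, 2.25-fold higher, and 865.6 against 952.5 on the other (log2 ratio 0.14). Its relative Arrdc4 was at least 2.28-fold higher (94.8 against 269.7), with the other probe set under the floor on both arrays. Irf4, a T cell activation factor, gave log2 ratios of 0.10 (brightest probe set) and -1.72, which leaves its direction unsettled.

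The labelled cell type was compared with its markers. All 14 T cell markers with a probe set were detected, and the CD3 chains Cd3d, Cd3e and Cd3g had log2 ratios of -0.23, 0.46 and 0.18. In the T cell list 5 of 14 were lower and none higher by at least 2-fold (12.5% and 5.63% of all detected genes). These were Cd8a (-1.60), Cd28 (-1.55), Cd2 (-1.34), Lat (-1.32) and Cd4 (-1.28). The summed signal was 77443 without and 54363 with triptolide. Summed signals of the other lists were 1634 and 1571 for 7 B cell markers (6 detected), 1212 and 1302 for 9 myeloid markers (5 detected), 731 and 703.0 for 7 neutrophil markers (5 detected), 2072 and 2565 for 5 NK cell markers (3 detected), and 855 and 1456 for 8 erythroid and platelet markers (2 detected). Defining markers under the floor on both arrays included Pax5, Cd14, Itgam, S100a9, Ncr1, Alas2, Pf4 and Ppbp. Detected ones with higher signals on the triptolide array included the platelet genes Gp5 (295.6 to 861.8) and Itga2b (190.9 to 406.7), the NK cell receptor gene Klrd1 (488.7 to 965.7), the B cell gene Cd79a (349.3 to 673.7), and Lyz2 and Mpo (at least 2.19-fold and 2.03-fold higher). At least 2-fold lower were Cd22 (369.2 to 178.8) and Mpeg1 (341.7 to 116.8). Lyz2 (72.2) and Mpo (77.4) were under the floor without triptolide. The neutrophil genes S100a8 (177.8 to 42.2) and Camp (153.6 to 14.9) were lower and under the floor with triptolide. Ratios were below 0 for 4 of 6 detected B cell markers, 1 of 5 myeloid and 2 of 5 neutrophil markers. The same held for 2 of 3 NK cell markers and 0 of 2 erythroid and platelet markers. The part of other cells in the values of the 10 genes was not tested. In bulk RNA, fewer cells of a type and less RNA per cell cannot be told apart.

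**Figure D4:**
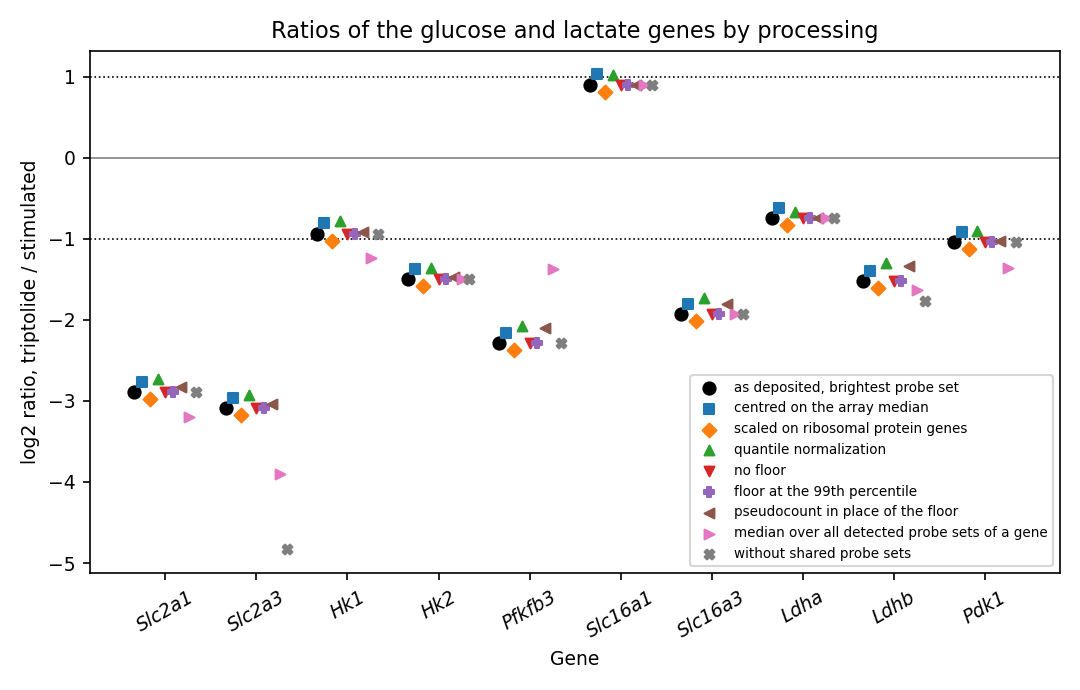
log2 ratio of triptolide over stimulated for each of the 10 genes (horizontal axis) as deposited on the brightest probe set (black circle) and under 8 alternative settings (coloured symbols), with 2-fold as dotted lines. Each gene keeps its sign under all settings drawn, Pdk1, Hk1 and Slc16a1 cross a 2-fold line, and Slc2a3 (to -4.83, a bound set by the floor) and Pfkfb3 (up to -1.38) move most.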

How the data were processed

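Each sample was 1 array. Per the submitters' processing notes the authors computed the values with MAS5, and the deposited values are a linear intensity per probe set (45037 in all). Its version and target value were not given in the sources used here. Over the 100 probe sets at the head of the table the 2% trimmed mean was 2000.0 on each array, so the arrays appear to have been scaled on these. Every ratio is therefore relative to the scaling of the arrays. A difference in the amount of mRNA per cell would not show, and the alternative scalings do not measure it either. In the platform annotation 34945 had 1 gene symbol, 932 several and 9160 none. Symbols of 34741 were updated by Entrez number through the RefSeq table of GRCm38.p6, and promoters came from RefSeq on that build. Coordinates are those of that build.

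Signals under 118, the higher of both arrays' 95th percentile of chemosensory receptor probe sets, were set to that floor. The log2 ratio is triptolide minus stimulated. A gene counted as detected if either array exceeded the floor, and took its probe set with the highest mean floored log2 signal. Median signals were 95.5 and 87.6, and 44.9% and 42.2% of probe sets lay above the floor. The number of arrays limits the precision, and no test was possible. The members and lists were chosen with earlier results of these data known. Named are all members, the glycolytic enzymes with a probe set of their own, the 2 lowest and 2 highest genes of each other list, and Hif1a, Myc, Txnip and Irf4. Pdk2, Pdk3, Pdk4, Emb and the cell type markers were named after their values were seen. Calculations used Python 3.11.15, pandas 2.3.3 and numpy 2.4.6 and were tested on simulated data. Alternatives were 3 scalings, 3 treatments of low signals and 2 choices of probe set.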

Additional observations from a re-analysis of the deposited data

How the results depend on the processing

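No paired analysis was possible because each group has 1 array. With no replicates, a value counted as moved when it differed by at least the SD between probe sets (0.49, or 0.69 for a difference of 2 genes) and a count when it differed by over 1.5 times. Over 8 alternatives, 6 to 8 of the 10 genes were at least 2-fold lower and their median ran from -1.63 to -1.33, while the share of all detected genes at least 2-fold lower ran from 8.42% to 18.3%. In 176 values of 22 named genes, 8 moved and no sign of a 2-fold gene was reversed. Genes within 2-fold on the brightest probe set could not be counted as reversed. Of these, Irf4 changed sign, from 0.10 to -0.81 with the median over all detected probe sets. Centred on the array median and with quantile normalization, 1 of the 10 genes (Slc16a1) was at least 2-fold higher instead of 0. Without shared probe sets, the log2 ratio of Slc2a3 minus Slc2a1 was at most -1.94, a bound since that Slc2a3 probe set lay under the floor with triptolide, and 5 regulators were at least 2-fold lower. With the median over all detected probe sets, 1 regulator and 0 monocarboxylate transporters were at least 2-fold higher. Without a floor, 1 glucose transporter, 3 monocarboxylate transporters and 3 pyruvate genes were at least 2-fold lower, 2 glucose transporters were higher and the monocarboxylate median was -0.95. With a pseudocount of 64 instead, 1 glucose transporter, 3 monocarboxylate transporters and 2 pyruvate genes were lower, 0 monocarboxylate transporters were higher and that median was -0.80. Scaled on 43 ribosomal protein genes, 1 monocarboxylate transporter was lower and 0 higher, and with a floor at the 99th percentile 0 were higher. The cause of these changes was not tested. The scalings shifted the triptolide array by 0.12 (median) and -0.09 (ribosomal genes) on the log2 scale. Detection near the floor limits every family list but not the 10 genes, whose brightest probe sets were all above it on both arrays.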

Other observations

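Probe sets listed for several genes were left out of the comparisons. A probe set shared by Hk1 with Rpl17 and its copies read 32700.4 without and 32042.1 with triptolide, a log2 ratio of -0.03, and cannot be read as Hk1. For Gapdh, a glycolytic enzyme with many pseudogenes, the shared probe sets gave 42949 against 39518.5 (-0.12), 846.7 against 227.3 (-1.90) and 525.2 against 363.9 (-0.53). All were below 0, but they differ in size and cannot be read as Gapdh alone.

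Of the 6 glucose and lactate genes with at least 2 probe sets measured on both arrays, 5 had the lower ratio on the dimmer of the 2 brightest, the exception being Pfkfb3. Limited to those at least 2-fold lower on the brightest probe set, the count was 4 of 5 (Slc2a1, Slc2a3, Ldhb and Pdk1). Among all 464 genes at least 2-fold lower with 2 measured probe sets, the dimmer one had the lower ratio in 131 (28.2%), and among all 3733 genes whatever their ratio in 50.2%. The 464 genes were selected by a low ratio on the brightest probe set, which favours a higher ratio on the dimmer one. Dimmer probe sets under the floor were left out, which can remove low ratios. The 28.2% is thus partly set by the selection and is no reference for the 4 of 5. Those glucose and lactate genes were themselves chosen with their values known. Their pattern was noticed after the values were seen and was not tested.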
